A study of Mus musculus with 15 samples.

Results

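The genes described here are 7 ubiquitin shuttle and quality control factors: Rad23b, Ubqln1, Ubqln2, Ubqln4, Bag6, Ddi2 and Vcp. They are 7 of 55536 genes in the count table, and their symbols were matched to Ensembl identifiers of GENCODE release M21. They were chosen because Rad23b, Bag6 and Ubqln4 were among the clearest differences between costimulated and antigen-primed cells in these same libraries. Their levels in that comparison are therefore given as a description, with no test. On mm10, Rad23b (ENSMUSG00000028426.10) lies at chr4:55350043-55392237 on the plus strand, Ubqln1 (ENSMUSG00000005312.15) lies at chr13:58176156-58215653 on the minus strand, Ubqln2 (ENSMUSG00000050148.9) lies at chrX:153498227-153501570 on the plus strand, Ubqln4 (ENSMUSG00000008604.11) lies at chr3:88553758-88569725 on the plus strand. In the same annotation, Bag6 (ENSMUSG00000024392.17) lies at chr17:35135178-35147322 on the plus strand, Ddi2 (ENSMUSG00000078515.4) lies at chr4:141677549-141723419 on the minus strand and Vcp (ENSMUSG00000028452.7) lies at chr4:42979963-43000507 on the minus strand.

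Proteins marked with ubiquitin chains are delivered to the proteasome by shuttle factors, which bind ubiquitin with one domain and the proteasome with a ubiquitin-like domain. RAD23B, the ubiquilins (UBQLN1, UBQLN2 and UBQLN4) and DDI2 are of this kind, and RAD23B is also a partner of the DNA damage sensor XPC. BAG6 is a chaperone holdase that captures exposed hydrophobic segments, such as those of tail-anchored and mislocalised membrane proteins. VCP (p97) is an AAA+ ATPase that pulls ubiquitylated proteins out of membranes, complexes and stalled ribosomes. An activated T cell makes and degrades a large amount of protein, so these factors belong to its proteostasis machinery.

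The study asked what costimulation does to transcript levels and splicing in CD8+ T cells that meet their antigen in vivo. OT-I cells, which carry a transgenic T cell receptor for the SIINFEKL peptide of ovalbumin and come from Rag1-/- or Rag2-/- mice on a C57BL/6J background, were transferred into wild-type C57BL/6J mice. Both groups received the peptide. The Ag group was given rat IgG with it, and the Ag+Costim group was given agonist antibodies against OX40 (CD134) and 41BB (CD137), which are costimulatory receptors of the tumour necrosis factor receptor family. Donor CD8+ Vα2+ Vβ5+ cells were sorted from spleen and lymph nodes of the recipients on day 4 by the labels, and the study's methods give a slightly shorter interval. The labels give no age, and the study used animals of both sexes. Counts of 5 Ag and 5 Ag+Costim libraries were used, and Naive libraries (cells of OT-I mice without transfer) were not analysed here. The study counts its replicates as mice. The labels do not tie each library to a recipient.

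Library totals lay between 59.6 and 639.1 M (mega) estimated counts, with the lowest in Ag replicate 3. CD8 T cell transcripts were high in all 10 libraries (summed CPM over 8 markers of 4494 to 8655 in Ag and 6219 to 7262 in Ag+Costim), and Cd4 was at most 5.07 CPM. CPM are counts scaled with TMM factors to a common library total. The Ag libraries differed from each other. Ag replicates 1, 3 and 4 had counts on 48058, 51778 and 40441 genes, with TMM factors of 1.40, 1.21 and 1.25. Ag replicates 2 and 5 had counts on 21779 and 20714 genes (TMM factors 0.91 and 0.83). The Ag+Costim libraries had counts on 28727 to 30340 genes (TMM factors 0.89 to 0.93). The summed CPM of 20 cell cycle genes was 1519 and 1626 in Ag replicates 1 and 4, 7159 in Ag replicate 3, 11472 and 12787 in Ag replicates 2 and 5, and 11356 to 14404 in the Ag+Costim libraries. Cd79a, a B cell receptor gene, was at 23.2, 93.3 and 32.6 CPM in Ag replicates 1, 3 and 4 and at most 5.57 CPM in the other 7 libraries. All 6 B cell markers together summed to 643 to 1179 CPM in Ag and 515 to 764 CPM in Ag+Costim, most of it Ighm. The 6 erythroid markers summed to 14.7 to 1103 CPM in Ag, the highest in replicate 3, and to 3.80 to 39.8 CPM in Ag+Costim. The 4 CD4 T cell markers summed to 3.74 to 26.4 and 3.16 to 8.20 CPM, and the 7 myeloid markers to 51.0 to 148.7 and 83.3 to 179.0 CPM, in Ag and Ag+Costim. The fold changes of the 7 genes and the medians of the pathway lists are therefore also given without these Ag libraries, while levels per kilobase and likeness use all 10 libraries. In sorted bulk cells, fewer cells of a type and less RNA per cell cannot be told apart.

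Rad23b had the largest difference of the 7 genes. It was at 24.4, 30.9, 34.4, 27.4 and 23.3 CPM in Ag replicates 1 to 5 and at 64.1, 62.1, 66.1, 75.9 and 59.3 CPM in Ag+Costim replicates 1 to 5. No Ag library reached the lowest Ag+Costim library, and there was a gap of 24.9 CPM between the lowest costimulated and the highest antigen-only library. The group means were 28.1 ± 4.59 CPM and 65.5 ± 6.35 CPM (n = 5 each, SD), a log2 fold change of 1.22 (SE 0.14) or 2.33-fold.

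Ubqln4, a ubiquilin that binds mislocalised membrane proteins, was at 28.5, 34.1, 32.8, 28.6 and 41.3 CPM in the Ag libraries and at 56.6, 62.3, 57.8, 66.5 and 63.8 CPM in the Ag+Costim libraries. The groups did not overlap, and the gap between them was 15.2 CPM. Its log2 fold change was 0.89 (SE 0.13), or 1.86-fold.

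Bag6 was at 51.9, 49.0, 56.4, 61.0 and 59.5 CPM in Ag and at 85.8, 102.7, 106.0, 111.1 and 104.8 CPM in Ag+Costim. All 5 costimulated libraries were higher than all 5 antigen-only libraries, by a gap of 24.8 CPM. Its log2 fold change was 0.88 (SE 0.12), or 1.84-fold, and its spread among Ag libraries (a coefficient of variation of 9.11%) was the smallest of the 7 genes.

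Vcp was by far the most abundant of the 7, with 329.9, 673.5, 471.6, 390.2 and 754.2 CPM in Ag and 763.3, 824.1, 874.1, 952.3 and 899.8 CPM in Ag+Costim. The groups were separated by 9.04 CPM only, since Ag replicate 5 nearly reached Ag+Costim replicate 1. The log2 fold change was 0.72 (SE 0.23), and the Ag libraries varied by 34.9% (coefficient of variation) against 8.38% in Ag+Costim.

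Ubqln1 was at 49.0, 125.6, 83.9, 68.2 and 97.9 CPM in Ag and at 93.7, 142.0, 147.0, 134.4 and 114.8 CPM in Ag+Costim. The groups overlapped, since Ag replicates 2 and 5 reached the range of the costimulated libraries. Its log2 fold change was 0.57 (SE 0.24).

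Ubqln2, the X-linked and intronless ubiquilin gene, was at 9.09, 6.88, 10.6, 9.46 and 8.59 CPM in Ag and at 9.77, 12.3, 15.4, 13.1 and 12.2 CPM in Ag+Costim. Of the costimulated libraries, only replicate 1 lay within the Ag range. The log2 fold change was 0.49 (SE 0.17).

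Ddi2, a shuttle with a retroviral-type aspartic protease domain that cleaves the transcription factor NFE2L1, was at 25.5, 33.6, 41.2, 36.3 and 37.6 CPM in Ag and at 36.2, 46.5, 49.2, 44.0 and 47.4 CPM in Ag+Costim. The overlap came from Ag+Costim replicate 1, which lay below 3 of the Ag libraries. Its log2 fold change of 0.36 (SE 0.15) was the smallest of the 7.

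**Figure D1:**
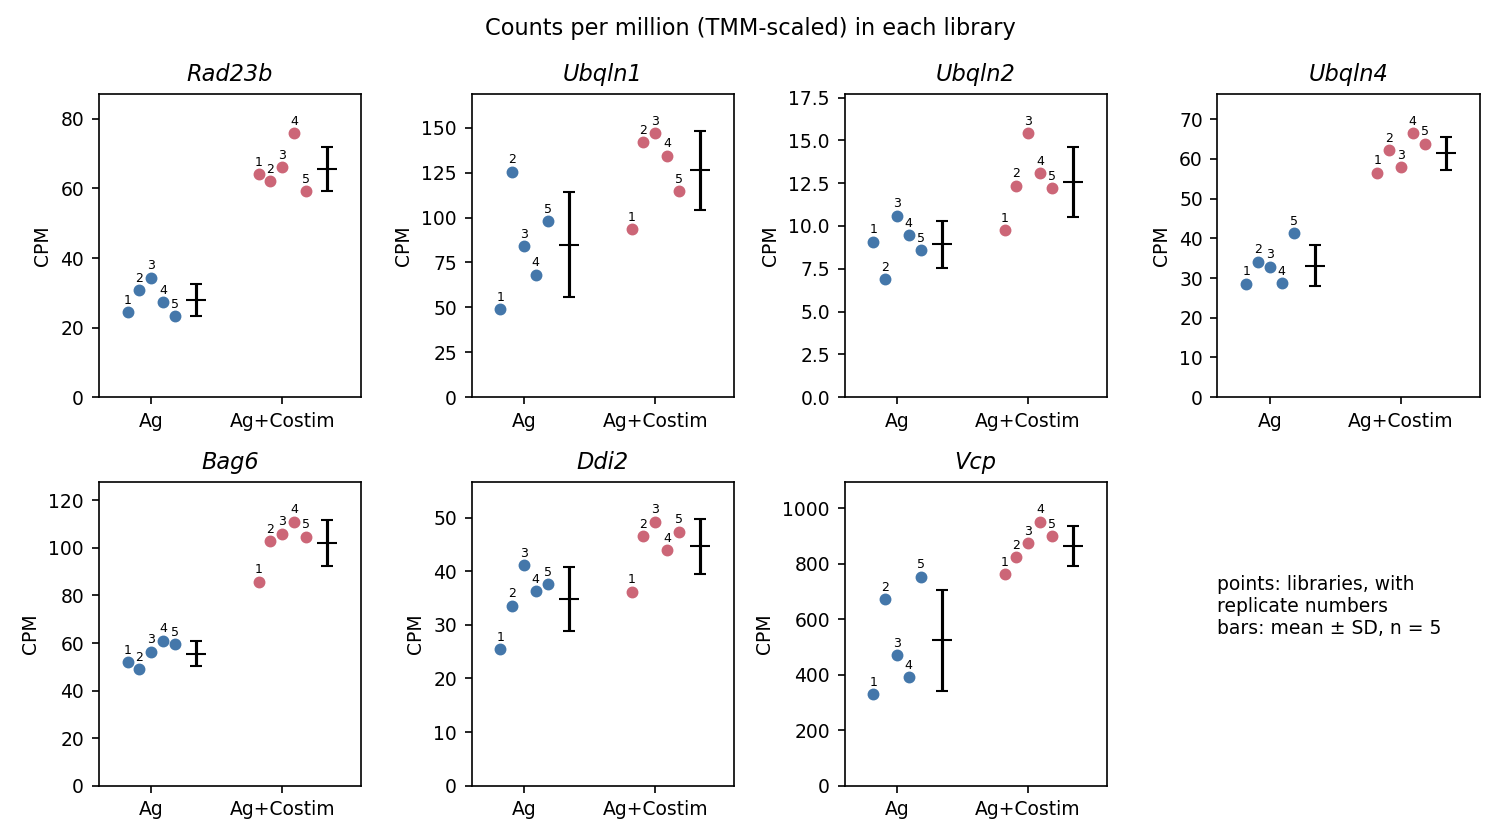
TMM-scaled CPM (vertical axes from 0) of the 7 genes in the Ag and Ag+Costim libraries. Points are libraries with their replicate numbers, and bars are the mean ± SD of 5 libraries. Rad23b, Ubqln4, Bag6 and Vcp have no Ag library within the Ag+Costim range, and the Ag libraries of Vcp and Ubqln1 are widely spread.

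All 7 genes passed the filter on low counts and had a higher mean in Ag+Costim. A positive log2 fold change was found for 37.7% of all genes tested and 75.6% of those with a mean of at least 10 CPM. The groups did not overlap for 4 of the 7, against 4.48% of the 24262 genes tested (11.3% of the 8626 genes with a mean of at least 10 CPM). With edgeR's quasi-likelihood test and Benjamini-Hochberg (BH) adjustment, 0 of the 7 and 0% of all genes tested were called. At an unadjusted p under 0.05, 1915 genes were higher (7.89%) and 2586 lower (10.7%). DESeq2 called 4 of the 7 (Vcp, Bag6, Ubqln4 and Rad23b), against 2.58% of 36101 genes called higher. limma voom with library quality weights called all but Ubqln2, against 25.7% called higher. The weights were lowest in Ag replicates 2 and 5. Nothing is read from these counts, because the genes were chosen on this comparison.

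How the libraries were scaled moved each fold change but not its sign. The log2 fold change of Rad23b was 1.08 with DESeq2's size factors, 0.98 with upper quartile scaling and 0.93 with total counts. The median over genes with a mean of at least 10 CPM moved in the same way, from 0.24 with TMM to 0.12, 0.02 and -0.0025 under those scalings. Taken relative to that median, Rad23b differed by 0.93 to 0.99, Ubqln4 by 0.64 to 0.65, Bag6 by 0.59 to 0.64 and Vcp by 0.48 to 0.52 over the 4 scalings. Ubqln1 differed by 0.34 to 0.36, Ubqln2 by 0.18 to 0.26 and Ddi2 by 0.09 to 0.12, so Ddi2 lay close to the median gene. With upper quartile scaling the groups of Vcp overlapped, and those of Rad23b, Ubqln4 and Bag6 did not.

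**Figure D2:**
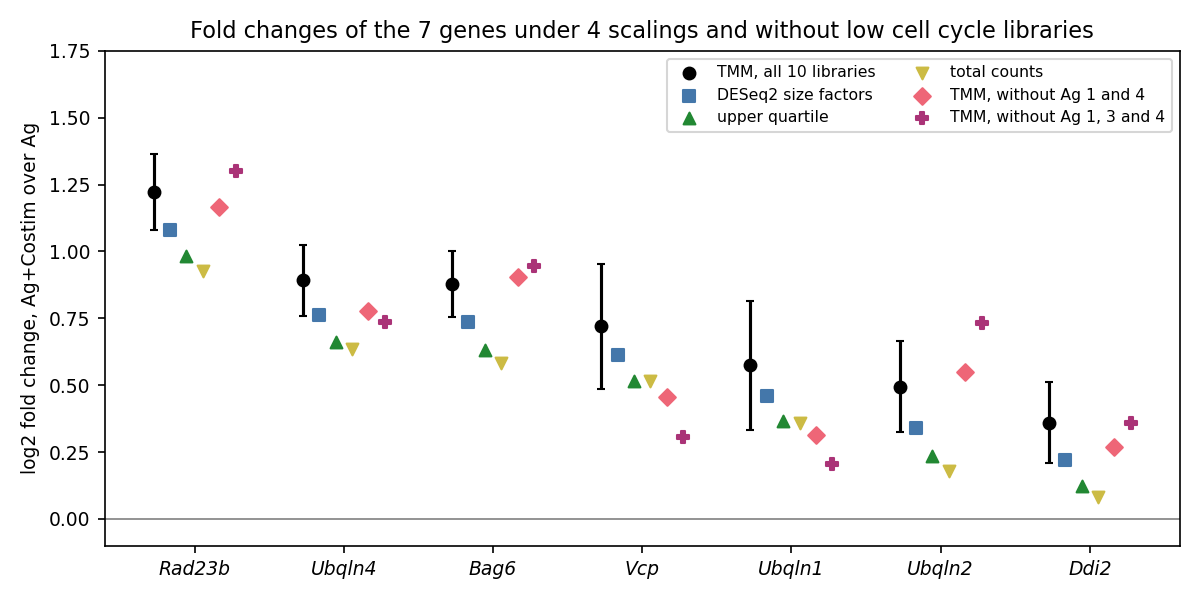
Log2 fold change, Ag+Costim over Ag (vertical axis), of each gene with 4 scalings of all 10 libraries and with TMM after leaving out Ag replicates 1 and 4 or 1, 3 and 4. Error bars on the black points are the standard error of the fit. Rad23b is highest under all 6 settings shown, while Vcp drops from 0.72 to 0.31 without the 3 libraries. The median of genes with a mean of at least 10 CPM drops from 0.24 to 0.04 between the same fits.

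The 7 genes varied unequally with the cell cycle level of the Ag libraries. Vcp and Ubqln1 were lowest in Ag replicates 1 and 4, the libraries with the least cell cycle RNA, and in Ag replicates 2 and 5 they approached or reached the costimulated range. Without Ag replicates 1 and 4 the log2 fold change was 0.46 for Vcp and 0.31 for Ubqln1, and without replicate 3 as well it was 0.31 and 0.20. Rad23b kept values of 1.17 and 1.30 in the same fits, Bag6 0.91 and 0.95, and Ubqln4 0.78 and 0.74. In Ag replicates 2 and 5, whose cell cycle level lay within the costimulated range and whose Cd79a was at 2.44 and 1.31 CPM, Rad23b was at 30.9 and 23.3 CPM and Bag6 at 49.0 and 59.5 CPM, still below every costimulated library. Ubqln4 was lowest in Ag replicates 1 and 4 too (28.5 and 28.6 CPM) and was at 34.1 and 41.3 CPM in Ag replicates 2 and 5, also below the costimulated range. Ubqln2 measured 0.55 and 0.73 and Ddi2 0.27 and 0.36 in these fits, the second of which rests on 2 Ag libraries. The median over genes with a mean of at least 10 CPM fell too, from 0.24 with all 10 libraries to 0.15 and 0.04. Relative to that median, Vcp differed by 0.48 with all 10 libraries and by 0.31 and 0.26 in these fits. Ubqln1 differed by 0.34 with all 10 libraries and by 0.16 in both fits. The part of cell cycling, and of the B cell and erythroid RNA in Ag replicates 1, 3 and 4, in the values of the 7 genes was not tested.

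**Figure D3:**
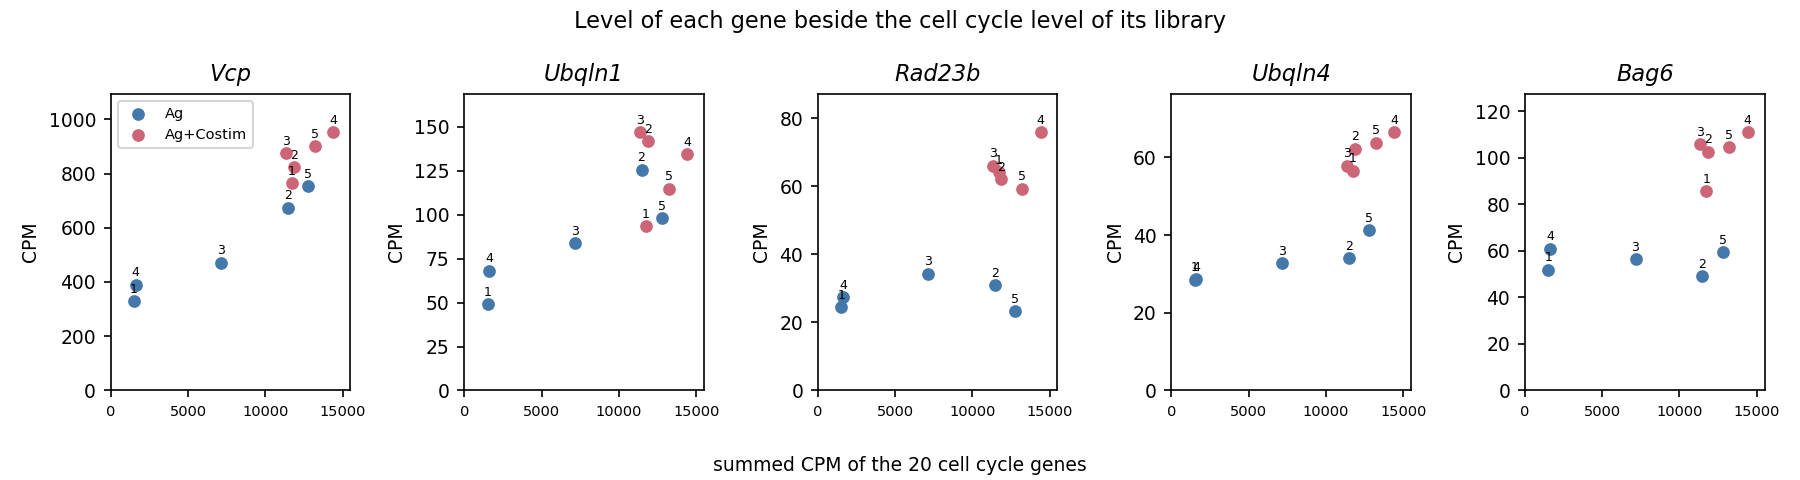
CPM of 5 genes (vertical axes) against the summed CPM of 20 cell cycle genes in the same library (horizontal axes), with replicate numbers, for Ag and Ag+Costim. Vcp and Ubqln1 are lowest in the Ag libraries near 1519 and 1626 cell cycle CPM, whereas Rad23b and Bag6 stay within 23.3 to 34.4 and 49.0 to 61.0 CPM over the whole range of Ag libraries.

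The promoters of Rad23b, Ubqln4 and Bag6 are shown because these genes had the largest log2 fold changes of the 7. They are RefSeq promoter windows on GRCm38.p6 (the mm10 assembly), 250 bases before to 50 after the annotated start, read 5′ to 3′. Such windows were found for 6 of the 7 genes, all but Ubqln2. Rad23b is at chr4:55349792-55350091, Ubqln4 at chr3:88553466-88553765 and Bag6 at chr17:35134963-35135262, all on the plus strand. Capitals mark the GC box GGGCGG, the CCAAT box CCAAT and the run TGCGCA, a half-site of the motif of nuclear respiratory factor 1, each on either strand, with overlapping matches merged.
Rad23b: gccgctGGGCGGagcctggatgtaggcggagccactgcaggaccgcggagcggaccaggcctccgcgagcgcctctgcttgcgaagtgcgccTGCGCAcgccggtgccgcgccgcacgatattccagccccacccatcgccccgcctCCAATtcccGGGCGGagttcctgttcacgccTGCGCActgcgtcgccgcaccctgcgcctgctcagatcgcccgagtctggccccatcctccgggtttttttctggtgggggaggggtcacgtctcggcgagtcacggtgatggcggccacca
Ubqln4: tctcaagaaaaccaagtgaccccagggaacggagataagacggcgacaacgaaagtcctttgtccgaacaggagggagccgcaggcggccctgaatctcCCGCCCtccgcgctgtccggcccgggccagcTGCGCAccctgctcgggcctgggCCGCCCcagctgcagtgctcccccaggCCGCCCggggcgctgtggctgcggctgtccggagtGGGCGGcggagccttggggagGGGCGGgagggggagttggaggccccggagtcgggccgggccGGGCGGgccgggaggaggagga
Bag6: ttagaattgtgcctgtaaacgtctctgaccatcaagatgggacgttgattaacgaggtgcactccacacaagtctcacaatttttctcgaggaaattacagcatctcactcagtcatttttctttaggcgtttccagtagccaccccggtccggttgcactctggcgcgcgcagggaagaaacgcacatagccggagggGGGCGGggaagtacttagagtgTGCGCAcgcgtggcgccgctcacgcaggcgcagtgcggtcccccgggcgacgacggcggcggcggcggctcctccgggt

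All 6 windows were richer in G and C than the median of 53% over 32544 promoters, at 70.7%, 73.3% and 59.3% for these 3 and 72.7%, 67.3% and 55.7% for Ddi2, Ubqln1 and Vcp. TGCGCA was found in the windows of Rad23b, Ubqln4 and Bag6, against 7.79% of all promoters and 15.7% of 8356 promoters of genes with a mean of at least 10 CPM. GGGCGG was found in Rad23b (2 matches), Ubqln4 (6), Bag6 (1) and Ddi2 (4), against 35.9% and 64.4%. CCAAT was found once in Rad23b and 5 times in Vcp, against 37.4% and 38.4%. The E-box CACGTG was found in none of the 6 windows, against 7.17% and 10.7%. Nor was the ETS core CCGGAAG (8.91% and 21.9%) or the palindromic cyclic AMP response element TGACGTCA (1.80% and 3.4%). TGANNNNGC, the core of the antioxidant response element, was found in the windows of Rad23b, Ubqln1 and Vcp, against 41.4% and 43.2%. A match describes letters in the window and not a bound site. The windows shown were picked by fold change and several motifs were looked for. Nothing is therefore read from which of the 6 windows held a motif.

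To compare genes with each other, counts were divided by transcript length in kilobases (CPM per kb, a level). In both groups the order was Vcp, Ubqln1, Bag6, Ubqln4, Rad23b, Ddi2 and Ubqln2. In Ag, Vcp was at 160.8 ± 53.9 CPM per kb (n = 5, SD), Ubqln1 at 23.4 ± 8.0, Bag6 at 17.2 ± 1.55, Ubqln4 at 10.2 ± 1.49, Rad23b at 8.56 ± 1.26, Ddi2 at 5.85 ± 1.53 and Ubqln2 at 2.67 ± 0.41. In Ag+Costim the same levels were 262.1 ± 21.4 for Vcp, 34.8 ± 6.02 for Ubqln1, 31.1 ± 2.46 for Bag6, 18.8 ± 1.23 for Ubqln4, 18.2 ± 1.52 for Rad23b, 8.23 ± 1.36 for Ddi2 and 3.76 ± 0.61 for Ubqln2. The ranges of Ubqln1 and Bag6 overlapped in both groups, as did those of Ubqln4 and Rad23b. Rad23b and Ddi2 overlapped in Ag and were apart in Ag+Costim. Other family members were near zero in costimulated cells: Ubqln5, Ubqlnl and Ddi1 were each at most 0.02 CPM there and at most 2.66 CPM in Ag, and none passed the filter.

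Ratios within a library do not depend on how libraries are scaled. Among the ubiquilins, Ubqln4 made up 28.8% ± 4.47 of the sum of Ubqln1, Ubqln2 and Ubqln4 per kb in Ag and 33.1% ± 3.77 in Ag+Costim (n = 5 each, SD). Ubqln1 made up 63.4% ± 6.78 and 60.4% ± 3.56 and Ubqln2 7.85% ± 2.60 and 6.54% ± 0.52. The ranges of all 3 shares overlapped between the groups.

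Each gene's counts were then divided among its annotated transcripts. Ubqln4 and Vcp were almost entirely one coding transcript, with at least 98.3% of counts on Ubqln4-201 and at least 99.1% on Vcp-201 in every library, and Ubqln2 has a single annotated transcript. The coding transcript Rad23b-201 held 82.2%, 94.1%, 83.9%, 88.7% and 92.6% of Rad23b counts in Ag and 96.6%, 95.7%, 96.6%, 98.3% and 96.5% in Ag+Costim, and the groups did not overlap. The lowest shares were in Ag replicates 1, 3 and 4, which held the B cell RNA and also had counts on the most genes. The shares of Ag replicates 2 and 5 lay nearer the costimulated range. The difference between the group means was 8.44 percentage points, and 6.54 without Ag replicates 1 and 4. The part of the B cell RNA, or of whatever raised the number of genes with counts, in this difference was not tested. The remainder was mainly Rad23b-202, a processed transcript without a reading frame, at 4.8% to 15.1% in Ag and 0.9% to 3.2% in Ag+Costim. In the table of percent spliced in (PSI, 1 pooled fraction per group), all 8 core exons of Rad23b were included at over 0.95 in both groups.

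Ubqln1 had one alternative coding exon of 84 bases (28 residues, in frame), at chr13:58180822-58180905 on the minus strand of mm10. It distinguishes Ubqln1-201 from Ubqln1-202 and is shown because it is the only internal exon of Ubqln1 with a PSI under 0.95. Its sequence in the GENCODE transcripts, 5′ to 3′ on the gene's strand, has no capitals.
Ubqln1 84-base exon: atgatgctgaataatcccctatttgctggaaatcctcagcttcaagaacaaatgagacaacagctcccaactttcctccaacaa

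Its inclusion did not differ beyond the spread between libraries. Transcript counts gave 57.6%, 54.6%, 47.0%, 56.2% and 73.4% in Ag and 57.7%, 64.3%, 59.95%, 54.7% and 53.5% in Ag+Costim. The means were 57.8% ± 9.65 and 58.0% ± 4.33 (n = 5, SD), and the pooled PSI was 0.583 in Ag and 0.597 in Ag+Costim, so both measures placed inclusion in the same range.

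Bag6 had the most complex structure, with 16 annotated transcripts and 34 of the 85 PSI entries of these genes. Most counts were on Bag6-201 and Bag6-202. Bag6-201 held 33.9%, 51.3%, 44.4%, 62.1% and 56.9% in Ag and 14.6%, 34.9%, 21.4%, 16% and 28.2% in Ag+Costim. Bag6-202 held 47.3%, 0.0%, 26.7%, 13.7% and 24.4% in Ag and 59.7%, 44.0%, 58.5%, 63.4% and 44.6% in Ag+Costim. The means differed in opposite directions, by -26.7 and 31.6 percentage points (Ag+Costim minus Ag). The ranges of the groups met through Ag replicate 1, which reached Ag+Costim replicate 2 for Bag6-201 and replicates 2 and 5 for Bag6-202.

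The exons that differ between Bag6 transcripts did not differ in this way in the PSI table. Of 24 internal exons, 3 had a PSI under 0.95, and all 3 are multiples of 3 bases long. The first and the last of them along the gene are shown because they mark where Bag6 proteins can differ, both on the plus strand of mm10, the 54-base exon at chr17:35139023-35139076 and the 147-base exon at chr17:35146757-35146903.
Bag6 54-base exon: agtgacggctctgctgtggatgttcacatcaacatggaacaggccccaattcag
Bag6 147-base exon: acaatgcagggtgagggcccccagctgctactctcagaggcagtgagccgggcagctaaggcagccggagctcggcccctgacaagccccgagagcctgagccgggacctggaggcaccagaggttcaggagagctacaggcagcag

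The 54-base exon (18 residues) was included at a PSI of 0.914 (Ag) and 0.922 (Ag+Costim), while transcript counts placed its inclusion at 62.5% ± 13.7 and 36.8% ± 10.2 (n = 5, SD). The 108-base exon at chr17:35142498-35142605 had a PSI of 0.846 and 0.868, against 22.2% ± 11.2 and 17.7% ± 2.02 from transcript counts. The 147-base exon (49 residues) had a PSI of 0.662 and 0.620, against 83.1% ± 7.20 and 90.3% ± 3.27. For all 3 exons the measures differed in level by more than the group difference of PSI, so the assignment of Bag6 counts to transcripts is uncertain. The cause of the disagreement was not tested. The PSI entries of Bag6 past a difference of 0.05 were at its 5′ end: the outermost start segment, the 27 bases chr17:35135178-35135204 inside the promoter window printed above, had 0.0099 in Ag and 0.123 in Ag+Costim, and the next segment, chr17:35135205-35135471, had 0.990 and 0.877.

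Ddi2 has a transcript with a long 3′ end, Ddi2-201 of 9553 bases, and a shorter one, Ddi2-202 of 3539 bases. Per length, Ddi2-201 made up 60.3%, 47.2%, 36.7%, 41.3% and 27.5% of Ddi2 transcripts in Ag and 30.5%, 30.6%, 23.8%, 46.3% and 29.3% in Ag+Costim. The groups overlapped. The pooled PSI of the distal end segment chr4:141677549-141683562 was 0.235 in Ag and 0.170 in Ag+Costim, and that of the proximal segment chr4:141683563-141685631 was 0.765 and 0.830. A 62-base internal exon at chr4:141689270-141689331, not a multiple of 3 long, had a PSI of 0.965 and 0.908. The intronless gene Rsc1a1 lies within Ddi2 on the same strand and was at most 0.11 CPM.

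Over all 7 genes, 5 of 85 PSI entries differed by more than 0.05, 2 in Bag6 and 3 in Ddi2, against 11.9% of 138940 entries in the table. None lay in Rad23b, Ubqln1, Ubqln4 or Vcp, and Ubqln2 had no entry. The PSI table has one value per group, so these differences have no replicate error. In the test of transcript usage (edgeR's diffSpliceDGE over 10441 genes), 0 of the 6 genes with 2 or more transcripts tested were called, against 0.297% of genes. limma's diffSplice called Bag6, against 1.39%.

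**Figure D4:**
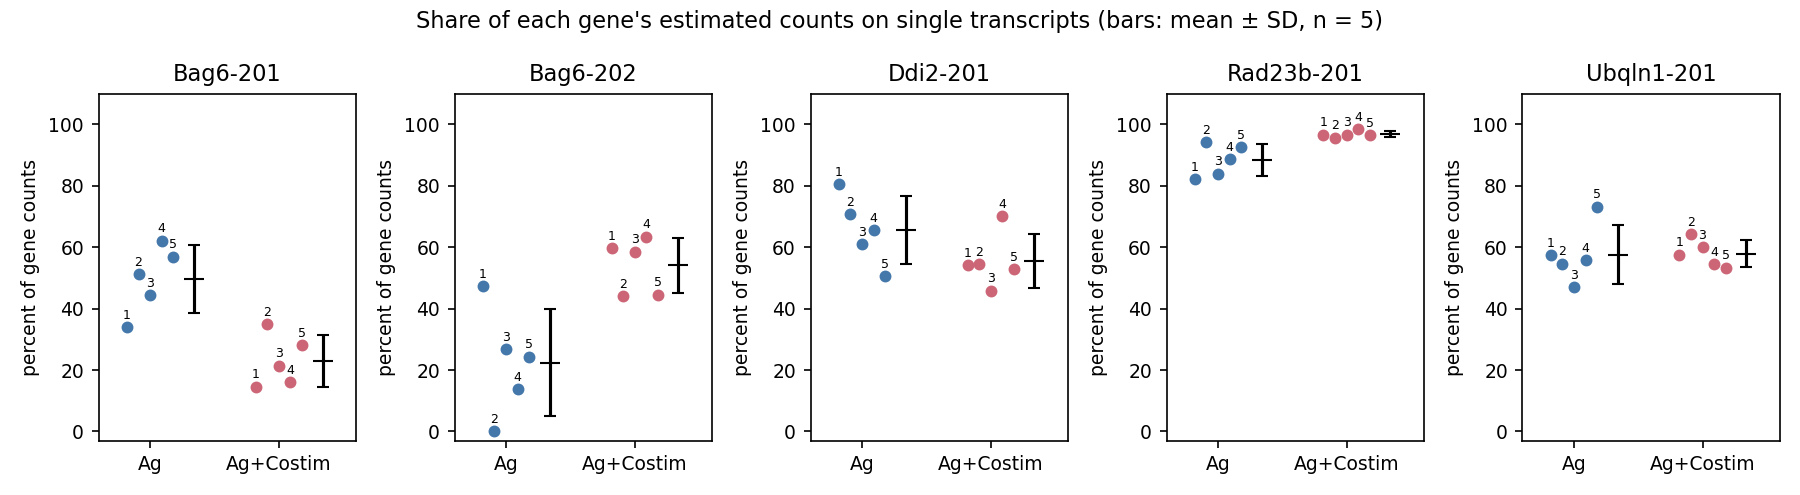
Percent of a gene's estimated counts on a single transcript (vertical axes, 0 to 100) in each Ag and Ag+Costim library, with replicate numbers and the mean ± SD of 5 libraries. Rad23b-201 lies between 95.7% and 98.3% in all costimulated libraries, Ubqln1-201 has means of 57.6% and 57.9%, and Bag6-202 is at 0.0% in Ag replicate 2.

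The profile of each of the 3 most different genes over the 10 libraries was compared with 8619 genes with a mean of at least 10 CPM, by the root mean square (RMS) difference of centred log2 CPM. All points share libraries and scaling, so likeness is a description. Closest to Rad23b were Prpf8, a core factor of the spliceosome (RMS 0.19), Sympk, a scaffold of the 3′ end processing machinery (0.20), and Iars, isoleucyl-tRNA synthetase (0.20). Their means were 101.9 ± 14.7, 36.0 ± 8.12 and 91.2 ± 25.1 CPM in Ag and 224.9 ± 45.3, 68.9 ± 6.20 and 184.9 ± 26.3 CPM in Ag+Costim (n = 5, SD). Closest to Ubqln4 were Pelo, which splits stalled ribosomes (0.10), Szrd1 (0.10) and Pus10, a pseudouridine synthase (0.10). Closest to Bag6 were Tgfb1, the cytokine TGF-β1 (0.09), Thrap3, a splicing-associated factor (0.12), and Dctn1, a dynactin subunit (0.13). Bag6 and Ubqln4 were each other's nearest gene among the 7 (0.16), and Bag6 was also the nearest of them to Rad23b (0.28). Many other genes were closer. Over all genes compared, Ubqln4 had rank 23 from Bag6, and Bag6 had rank 47 from Ubqln4 and rank 27 from Rad23b.

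The other genes of the pathway were taken from 9 lists with 160 genes, of which 156 passed the filter. Of these, 130 (83.3%) had a positive log2 fold change, against 75.6% of genes with a mean of at least 10 CPM and 37.7% of all genes tested. The same shares stand beside the counts of positive genes in each list below, for the fit of all 10 libraries with TMM. In that fit 11.3% of genes with a mean of at least 10 CPM were higher without overlap. This share stands beside the counts without overlap in each list. The groups did not overlap for 18 higher genes and 0 lower genes (1.13% of all genes tested were lower without overlap). The 18 are 11.5% of the 156, near the 11.3% of all genes with a mean of at least 10 CPM. The median log2 fold change was 0.31, against 0.24 for those genes and -0.32 for all genes tested. Without Ag replicates 1 and 4 the median of genes with a mean of at least 10 CPM was 0.15, and without 1, 3 and 4 it was 0.04. The list medians below from those fits stand beside these values. edgeR called 0 of the 156 at BH under 0.05 (28 higher and 1 lower at an unadjusted p under 0.05), and DESeq2 called 15 higher and 5 lower (2.58% and 19.8% of all genes). limma voom with weights called 102 higher and 9 lower. Over all 24262 genes tested, that fit called 12632, of which 6241 (25.7% of all genes) were higher and the others lower.

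In the list of quality control ubiquitin ligases and ribosome rescue factors (median 0.16), 6 of 23 genes (26.1%) did not overlap with TMM. The share was 11.3% over genes with a mean of at least 10 CPM. With DESeq2's size factors 3 of the 23 did not overlap, and 1 each with upper quartile scaling and total counts. Shares over all genes under those scalings are not given. The named genes of this list act on stalled ribosomes. Pelo was at 7.62 ± 1.64 CPM in Ag and 13.9 ± 0.58 in Ag+Costim (log2 fold change 0.87, SE 0.17, edgeR adjusted p = 0.134). Zfp598, the ligase that marks collided ribosomes, measured 0.71 (SE 0.14, edgeR adjusted p = 0.140), and Ltn1, the ligase that marks the stalled nascent chain, measured 0.70 (SE 0.17, edgeR adjusted p = 0.169). None of the 3 overlapped between groups with TMM. Without Ag replicates 1 and 4 the median of this list was 0.31 with 21 of 23 positive, and without replicates 1, 3 and 4 it was 0.37 with 19 positive. With total counts the median was -0.14 and 9 of 23 were positive, so the sign of the list depended on the scaling.

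The 26S proteasome is the destination of the shuttles. All 31 subunits on its list had a positive log2 fold change, against 75.6% of genes with a mean of at least 10 CPM. Their median was 0.46, and 1 of 31 did not overlap. Psmd2, which encodes a base subunit that docks shuttle factors, was at 423.7 ± 184.3 CPM in Ag and 708.9 ± 71.8 in Ag+Costim (0.74, SE 0.29, edgeR adjusted p = 0.256). Psmd1, a scaffold subunit of the base, measured 0.82 (SE 0.37, edgeR adjusted p = 0.268) and Psmd12 0.68 (SE 0.33, edgeR adjusted p = 0.282). Without Ag replicates 1 and 4, 20 of 31 were positive with a median of 0.07 (0.15 over genes with a mean of at least 10 CPM). Without Ag replicates 1, 3 and 4, 6 of 31 were positive with a median of -0.17 (0.04 over those genes), and 10 of 31 were lower without overlap. This last fit rests on 2 Ag libraries, where groups separate more easily than with 5, and its share over all genes is not given. The cell cycle levels of the Ag libraries left out are given above, and their part in these results was not tested.

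Among other shuttles and receptors (11 of 15 tested, median 0.40, 2 without overlap), Tollip, an endosomal ubiquitin-binding adaptor, was at 57.7 ± 8.26 CPM in Ag and 92.4 ± 4.90 in Ag+Costim (0.68, SE 0.13, edgeR adjusted p = 0.134), with no overlap. The proteasome-bound deubiquitinases Uchl5 (0.81, SE 0.43) and Usp14 (0.67, SE 0.30) overlapped, with edgeR adjusted p of 0.296 and 0.268. The median of this list was 0.19 without Ag replicates 1 and 4 and 0.10 without 1, 3 and 4. In the BAG6 complex list (8 tested, median 0.31, 0 without overlap), the BAG6-associated ligase Rnf126 measured 0.82 (SE 0.23), the targeting ATPase Asna1 0.53 (SE 0.21) and the cochaperone Sgta 0.42 (SE 0.20), with edgeR adjusted p of 0.201, 0.257 and 0.277. The median of this list was 0.05 without Ag replicates 1 and 4 and -0.04 without 1, 3 and 4, while Bag6 itself measured 0.91 and 0.95. Over genes with a mean of at least 10 CPM the median was 0.15 and 0.04 in these fits. Among 32 VCP cofactors (median 0.19, 3 without overlap), Ubxn2a measured 0.55 (SE 0.18), Nploc4 0.50 (SE 0.26) and Ubxn6 -0.61 (SE 0.24), with edgeR adjusted p of 0.229, 0.294 and 0.257. The median of this list was 0.09 without Ag replicates 1 and 4 and 0.03 without 1, 3 and 4. It was -0.06 with total counts, where 10 of 32 were positive.

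Of 12 ubiquitin genes and activating enzymes (median 0.29, 3 without overlap), Uba1, the main ubiquitin-activating enzyme, measured 0.64 (SE 0.24, edgeR adjusted p = 0.248), and Uba6 0.52 (SE 0.25, edgeR adjusted p = 0.281). Of 20 cytosolic chaperones and BAG cochaperones, 19 were positive (median 0.44, 2 without overlap), with Hsph1 at 0.87 (SE 0.30), Bag2 at 0.80 (SE 0.49) and Hspa4 at 0.72 (SE 0.30), and edgeR adjusted p of 0.237, 0.339 and 0.263. Without Ag replicates 1 and 4 the median was 0.23 for the chaperones and 0.11 for the ubiquitin genes, and without 1, 3 and 4 it was 0.04 and -0.05.

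The list around the DNA repair role of RAD23B had a median of 0.03 (12 tested, 7 positive, 1 without overlap). The median was 0.23 without Ag replicates 1 and 4, 0.14 without 1, 3 and 4, and -0.12 with DESeq2's size factors. Ddb1, the damage-binding adaptor of CUL4 ligases, was at 245.4 ± 75.0 CPM in Ag and 415.3 ± 39.2 in Ag+Costim, with no overlap (0.76, SE 0.22, edgeR adjusted p = 0.201). Ercc2 and Ercc3, helicases of TFIIH, measured 0.70 (SE 0.21) and 0.44 (SE 0.21), with edgeR adjusted p of 0.220 and 0.273. With total counts the median was -0.26. In the NFE2L1 list around DDI2 (7 tested, median 0.17, 6 positive, 0 without overlap), Keap1 measured 0.46 (SE 0.18), Mafk 0.31 (SE 0.15) and Btrc -0.21 (SE 0.12), with edgeR adjusted p of 0.257, 0.277 and 0.329. The median of this list was 0.22 without Ag replicates 1 and 4 and 0.14 without 1, 3 and 4. With total counts 1 of the 7 was positive.

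**Figure D5:**
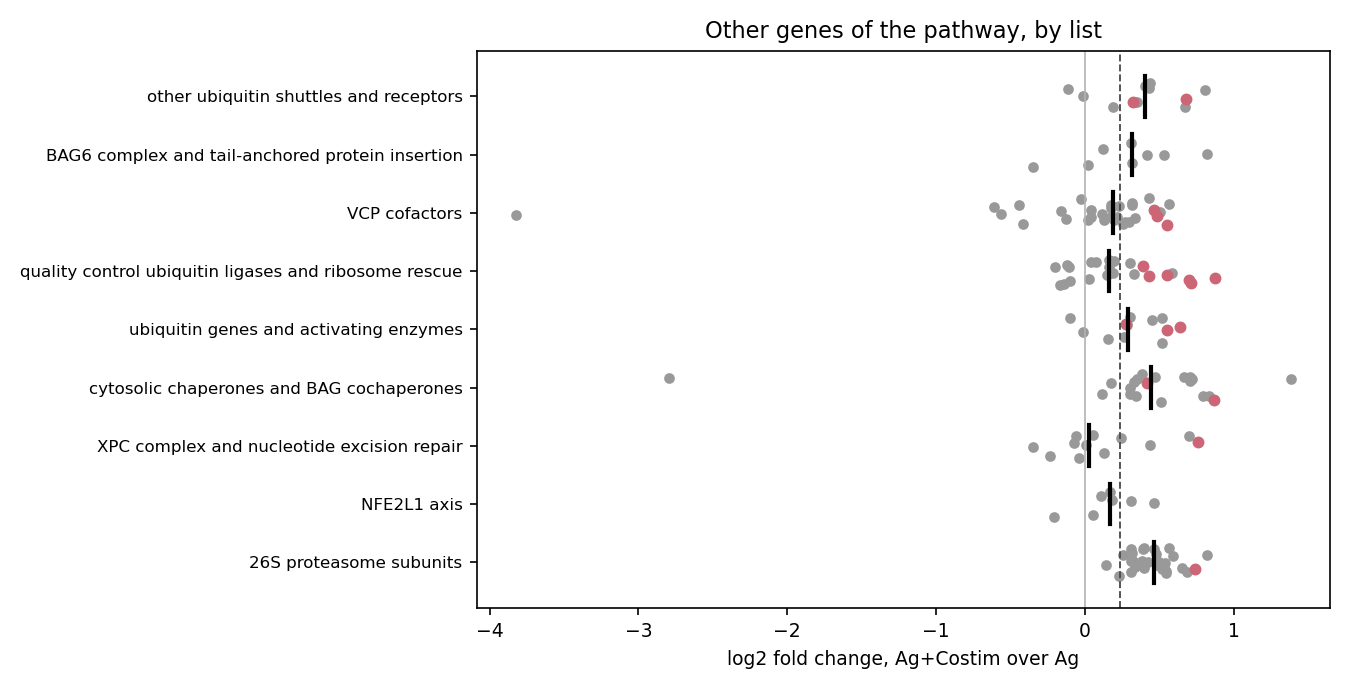
Log2 fold change, Ag+Costim over Ag (horizontal axis), of the other genes of the pathway in 9 lists, where points are genes, red points are genes with every costimulated library above every antigen-only library, black bars are list medians and the dashed line is the median of genes with a mean of at least 10 CPM (0.24). Proteasome subunits all lie above 0 with 1 red point, and the ribosome rescue and quality control ligase list has 6 red points of 23. Of genes with a mean of at least 10 CPM, 75.6% lie above 0 and 11.3% are higher without overlap.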

How the data were processed

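Poly(A) RNA of sorted CD8+ T cells was sequenced (SMART-Seq v4 with Nextera XT, which does not mark strand). Per the labels, the authors used HISAT2 2.1.0, SAMtools 1.9 and StringTie 2.1.0 on mm10, and the authors deposited StringTie's expected counts (whole-number estimated counts) per gene and transcript, not normalized. They derive from coverage, so totals are not read numbers. The authors' deposited PSI table, made with Whippet, holds 1 fraction per event and group. Its columns with their difference and probability were not used.

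All 55536 gene and 141862 transcript identifiers matched GENCODE release M21. Entries with a number for a name (26248, 0.0603% of counts) were left out together with spike-ins. No column of per-sample values was unmapped (0). The 5 Ag and 5 Ag+Costim libraries were compared with edgeR 4.0.16 (filterByExpr, TMM, robust quasi-likelihood test, BH over all genes, threshold 0.05) in R 4.3.3. DESeq2 1.42.0 and limma 3.58.1 were alternatives. Transcript usage was tested with diffSpliceDGE (BH under 0.05 and a share change over 0.1). Both tests were tested on simulated data. Levels per kb divide each transcript's counts by its length. Exon inclusion from counts is the share of transcripts containing the exon among those spanning it. Figures used matplotlib 3.10.9.

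The genes and lists were chosen with earlier results of these data known. From each list the 3 genes with the largest absolute log2 fold change and a mean of at least 10 CPM were named, and the 3 genes most like each of Rad23b, Ubqln4 and Bag6. Without strand, reads of Vcp and its antisense neighbour 1700022I11Rik (at most 3.28 CPM) cannot be told apart. Some genes of the lists are not reported here.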

Additional observations from a re-analysis of the deposited data

Results flagged for a closer look

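The 7 genes themselves had no library standing apart from the others of its group (Dixon's test at the 95% critical value of 0.71 for 5 libraries). Among the other pathway genes, 4 values stood apart. In all, 102 groups were tested, and chance alone marks about 1 in 20 groups, so 4 is no more than chance gives. Uchl5 was at 198.4 CPM in Ag+Costim replicate 4, against 147.8 to 160.0 CPM in the other costimulated libraries, and Psmd12 was at 291.4 CPM in the same library, against 240.4 to 248.2 CPM. Nploc4 was at 115.7 CPM in Ag+Costim replicate 1, below the other 139.5 to 145.9 CPM. Ercc3 was at 61.1 CPM in Ag replicate 5, above the other 28.9 to 34.5 CPM. The cause of these values was not tested.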

How the results depend on the processing

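All 7 log2 fold changes were positive under all 19 alternatives. With no filter, Rad23b measured 1.62, Ubqln4 1.24, Bag6 1.22, Vcp 1.06, Ubqln1 0.93, Ubqln2 0.87 and Ddi2 0.74. The median of genes with a mean of at least 10 CPM was then 0.56. With voom and weights that median was 0.44, and Ubqln2 lay below it at 0.39. edgeR called 0 genes under 16 of 19 alternatives, each left-out library included (0 to 0). DESeq2 called 8064 (931 higher), voom with weights 12632, and edgeR without Ag replicates 1, 3 and 4, an alternative chosen after seeing the data like that without 1 and 4, 2752. Members higher without overlap numbered 3 to 6 when single libraries were left out, and Vcp dropped out without Ag replicate 2 or Ag+Costim replicate 2 or 4. The filter and TMM factors were computed anew in each of these fits. Leaving a library out cannot by itself make separated groups overlap. Pathway genes higher without overlap numbered 11 with DESeq2's size factors, 10 with total counts, 4 with upper quartile scaling, 39 of 160 with no filter, 33 (and 26 lower) without Ag replicates 1, 3 and 4, and 16 to 25 when single libraries were left out. None of these counts, nor those of the members, has the share over all genes under its own setting beside it. Nothing is read from them. The 33 and 26 also rest on 2 Ag libraries, where groups separate more easily than with 5. Usage calls (31) were 145 with limma's diffSplice, 19 with at least 50 counts, and 33 to 93 when single libraries were left out, the highest without Ag replicate 5. PSI entries past 0.1 numbered 2. The planned stricter probability of PSI events was not run, since that column was not used. Replicate numbers did not pair the libraries (same-number correlations of 0.21, -0.01, -0.20, -0.44 and 0.05, and no Ag library correlated best with its own number). With the replicate block, edgeR called 0 genes and diffSpliceDGE 30. Leaving 1 library out moved Vcp between 0.60 and 0.90 and Ubqln1 between 0.43 and 0.78 (log2). The shallowest library, Ag replicate 3, held 59.6 M counts, and Ubqln2, the least abundant gene, was at 6.88 CPM or more in every library.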
